A study of Mus musculus with 18 samples.

Results

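The antigen presentation genes followed here were 10 mouse genes: H2-Aa, H2-Ab1, H2-Eb1, Cd74, H2-DMa and Ciita of the class II pathway, and H2-K1, B2m, Tap1 and Tapbp of the class I pathway. They were chosen by symbol, with earlier results of these data known. Each gene was taken from the row of the value table that the platform annotation assigns to it alone, and from the brightest such row where there were several. Of the 10 genes, 9 had such a row, among 19454 genes in all, and 8 passed the signal limit described below, among 10258 genes tested. H2-K1, which encodes a classical class I heavy chain, is probed only by 2 rows shared with H2-D1 and LOC547349, so no value is given for it. Each of the other 9 genes had 1 row of its own, and for Tapbp a further 2 rows shared with Rps3a1 were not used.

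The series measured mRNA decay in macrophages differentiated from C57Bl/6 bone marrow in medium containing M-CSF, the growth factor of the macrophage lineage. Cells were wild type (WT) or TTP-/- (KO); TTP, encoded by Zfp36, is a protein that binds AU-rich elements in mRNAs and recruits the deadenylation machinery. Both genotypes received LPS, a bacterial cell wall component, for 3 h, and then fresh medium with actinomycin D, which stops transcription, and SB203580, which inhibits p38 kinase. RNA was taken 0, 45 or 90 min later, with 3 arrays for each of the 6 groups of genotype and time. The 0 min groups therefore show LPS-stimulated cells, and the later groups show what remained of each mRNA without new transcription but with p38 inhibited, so that the effects of both agents cannot be told apart.

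Class II molecules present peptides from the endocytic route to CD4 T cells. H2-Aa and H2-Ab1 encode the alpha and beta chains of I-A, H2-Eb1 encodes the beta chain of I-E, the invariant chain encoded by Cd74 fills and guides the new dimers, and H2-DMa encodes a chain of the DM peptide exchanger; transcription of this set depends on the coactivator CIITA together with RFX, CREB and NF-Y bound to the X and Y boxes of their promoters. Class I molecules present cytosolic peptides to CD8 T cells, with B2m encoding their light chain, Tap1 encoding a subunit of the peptide transporter and Tapbp encoding tapasin, which bridges transporter and class I during loading. C57Bl/6 mice carry the b haplotype, which does not produce an I-E alpha chain, so H2-Eb1 is read here as mRNA alone.

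Promoter sequence is shown for H2-Aa and H2-Eb1, the genes whose genotype difference was called with a replicate block below, and for B2m and Tap1 of the class I pathway. Each line gives the 100 bases before the RefSeq start on GRCm38.p6, 5′ to 3′ on the gene's strand, at chr17:34287824-34287923 (minus strand) for H2-Aa, chr17:34305767-34305866 (plus strand) for H2-Eb1, chr2:122147587-122147686 (plus strand) for B2m and chr17:34187456-34187555 (plus strand) for Tap1. Capitals mark CCAAT, the core of the Y box, or ATTGG, the same letters on the other strand.
H2-Aa: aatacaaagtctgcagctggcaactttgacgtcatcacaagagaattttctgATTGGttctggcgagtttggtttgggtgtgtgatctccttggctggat
H2-Eb1: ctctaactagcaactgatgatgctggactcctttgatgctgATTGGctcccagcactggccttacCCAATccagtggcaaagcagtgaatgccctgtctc
B2m: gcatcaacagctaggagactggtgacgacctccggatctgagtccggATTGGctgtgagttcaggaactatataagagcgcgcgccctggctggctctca
Tap1: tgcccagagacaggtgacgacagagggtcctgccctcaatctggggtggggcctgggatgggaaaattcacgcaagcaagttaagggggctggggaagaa
In H2-Aa the ATTGG lies 48 bases before the start, downstream of a TGACGT on either strand at 74 and 72 bases, letters that occur in many CREB sites. H2-Eb1 holds ATTGG at 59 bases and CCAAT at 35 bases, and B2m holds ATTGG at 53 bases. The window printed for Tap1 has neither; its CCAAT lies 222 bases before the start. Entries were matched for 7 of the 10 genes, with 2 entries each for H2-DMa and H2-K1. All 7 genes held CCAAT on either strand between 250 bases before and 50 bases after the start in at least 1 entry. For H2-DMa not both entries held it. Counted per promoter and not per gene, 12289 of 32851 RefSeq promoters of the same length held it (37.4%). TGACGT on either strand was found in 2468 of the 32851 promoters (7.51%), and among the matched genes in H2-Aa alone. These matches describe the letters only.

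H2-Aa, H2-Ab1, H2-Eb1, H2-DMa, Tap1 and Tapbp lie on chromosome 17 in the same annotation (H2-Aa from 34282744 to 34287823, H2-Ab1 from 34263227 to 34269418, H2-Eb1 from 34305867 to 34316674, H2-DMa from 34119693 to 34139101, Tap1 from 34187556 to 34197225 and Tapbp from 33919478 to 33929290). H2-K1 lies on the same chromosome from 33996012 to 34000619, B2m lies on chromosome 2 from 122147687 to 122153082, and Ciita lies on chromosome 16 from 10480014 to 10531064.

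Levels are log2 intensities and differences are log2 differences between group means; errors of differences are the model's standard errors from limma and errors of levels are SD over 3 arrays. A gene was tested if at least 1 group averaged 3.03 or more, and called at a Benjamini-Hochberg adjusted p below 0.05. This signal limit is the median of the row means over the rows with 1 symbol, and it does not measure detection. Array medians lay between intensities of 7.41 and 8.19, and correlations within groups between 0.962 and 0.995. The numbers in the array titles form 2 runs: replicate 3 of every group belongs to the lower run (series A, 6 arrays) and replicates 1 and 2 to the higher run (series B, 12 arrays). The first principal component held 29.0% of the variance and separated them, with scores above 0 on all 6 series A arrays and below 0 on all 12 series B arrays. What the runs differ in is not stated. The labels also leave unsaid whether the 3 replicates of a group are different mice or cultures; if they are not, the p-values reflect technical spread alone. Zfp36, the targeted gene, had 7.64 ± 0.45 in WT and 6.61 ± 0.31 in KO at 0 min, and 4.12 ± 0.03 and 4.99 ± 0.85 at 90 min; the place of its probes relative to the targeted part is not given in the sources used here, so this does not check the labels. Tnf, the best-known TTP target, had 7.60 ± 0.13 in WT and 11.58 ± 0.24 in KO at 90 min. All 8 macrophage markers passed the signal limit, as against 3 of 8 dendritic cell markers, 0 of 6 measured B cell markers, 0 of 5 measured T cell markers and 1 of 6 neutrophil markers (S100a8). Of 6 fibroblast markers 3 passed it (Col1a1, Col1a2 and Col3a1), so the macrophage label was borne out by its markers, with collagen transcripts above the limit as well.

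At 0 min all 4 class II transcripts with a clear signal had a lower mean in KO than in WT macrophages, by 0.64 to 0.76, yet the arrays within each group were spread so widely that no difference passed the test. H2-Eb1 read 6.57, 6.15 and 7.99 in WT replicates 1, 2 and 3 at 0 min, and 5.59, 5.75 and 7.08 in KO. At 45 min it read 6.52, 6.25 and 7.80 in WT and 5.56, 5.93 and 7.46 in KO, and at 90 min 6.86, 6.30 and 8.18 in WT and 5.57, 6.14 and 7.68 in KO. Replicate 3 was the highest array in all 6 groups, so that WT and KO ranges overlapped at each time, while the KO array lay below the WT array of the same replicate number in 9 of 9 pairs.

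H2-Aa gave a similar picture. It read 7.47, 7.27 and 8.15 in WT and 6.33, 6.95 and 7.69 in KO at 0 min. At 45 min it read 7.59, 7.0 and 7.67 in WT and 6.56, 6.86 and 7.38 in KO, and at 90 min 7.62, 7.08 and 8.16 in WT and 6.58, 7.12 and 7.78 in KO. The KO array was the lower one in 8 of 9 pairs, the exception being replicate 2 at 90 min with a difference of 0.04.

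**Figure D1:**
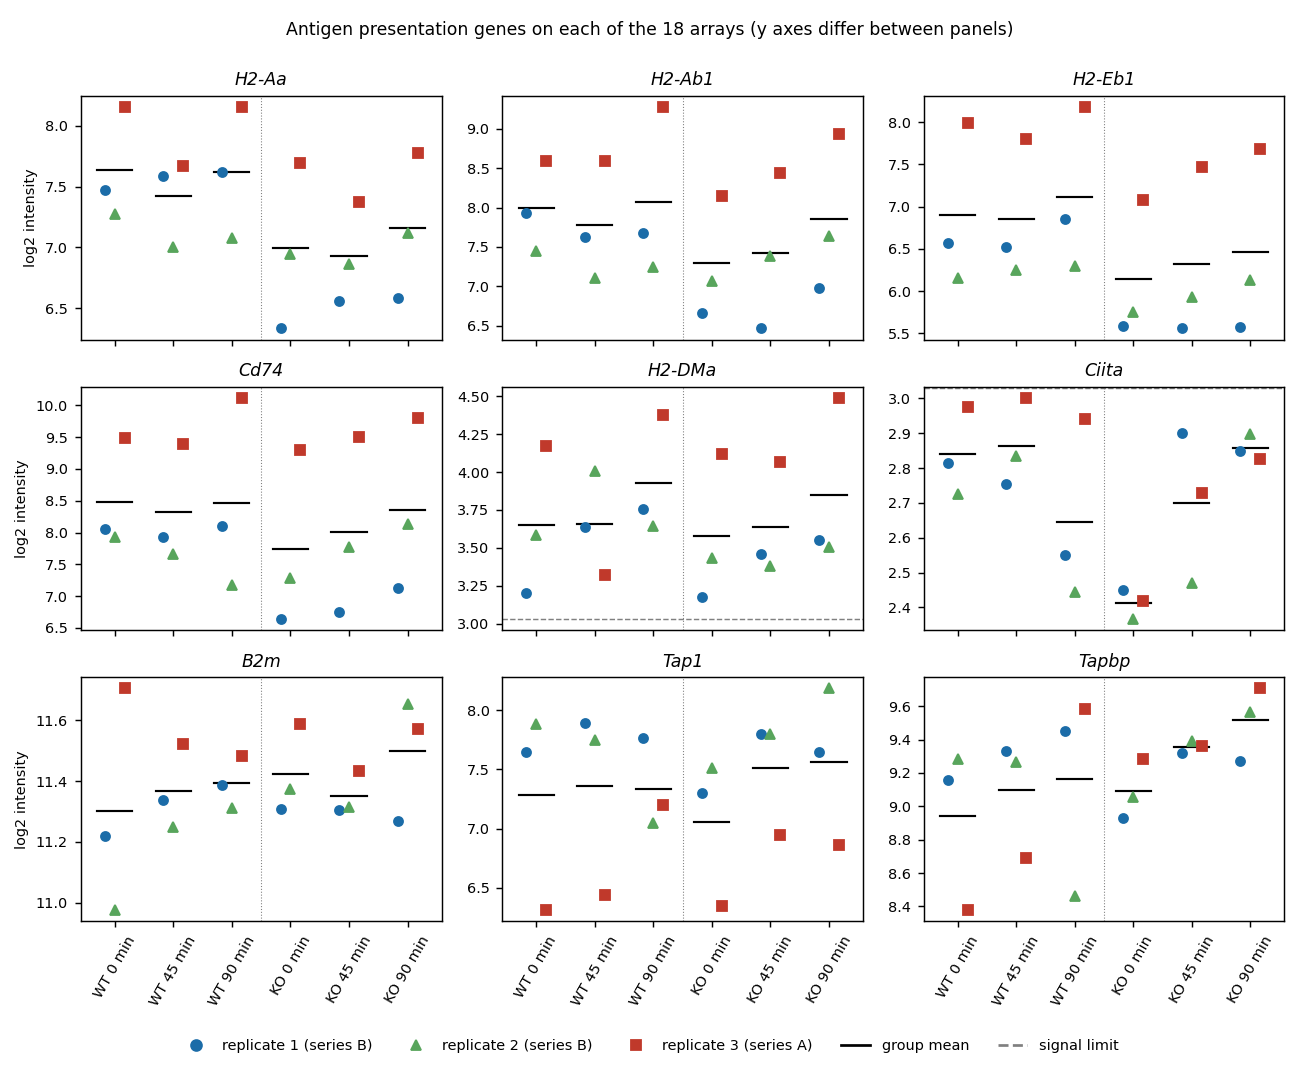
Log2 intensity of the 9 measured genes on each of the 18 arrays, 1 panel per gene, by group of genotype and time, with series A and series B arrays marked apart and the signal limit of 3.03 drawn where it falls inside a panel. H2-Ab1, H2-Eb1 and Cd74 have every series A array above every series B array, whereas Tap1 lies lower in series A in all 6 groups and Ciita never exceeds the limit.

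H2-Ab1 was less even. It read 7.93, 7.45 and 8.59 in WT and 6.66, 7.07 and 8.15 in KO at 0 min, but 7.67, 7.25 and 9.28 in WT and 6.98, 7.63 and 8.94 in KO at 90 min. The KO array was lower in 7 of 9 pairs. Cd74 read 8.05, 7.92 and 9.49 in WT and 6.64, 7.29 and 9.29 in KO at 0 min, and 8.11, 7.18 and 10.12 in WT and 7.13, 8.13 and 9.81 in KO at 90 min, with the KO array lower in 6 of 9 pairs. For both genes the largest differences were those of replicate 1, and replicate 2 had the opposite sign at 90 min, with 0.38 for H2-Ab1 and 0.95 for Cd74.

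In the comparison of KO with WT at single times, limma called 0 of the 8 tested genes at 0 min, where 0% of all tested genes were called (0 genes, with 387 higher and 390 lower at an unadjusted p below 0.05). It called 0 of 8 at 45 min, against 0.0195% of all tested genes, and 0 of 8 at 90 min, against 0.146%. At the unadjusted level 0 of 8 passed at each of the 3 times. The 95% intervals were wide: for H2-Eb1 at 0 min the difference of -0.76 had an interval from -2.16 to 0.63, and for Cd74 the difference of -0.75 had one from -2.58 to 1.09. Differences of this size were not resolved at this spread, and in bulk RNA fewer cells with a transcript cannot be told apart from less of it per cell.

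Averaged over the 3 times, the KO minus WT difference was -0.65 ± 0.38 for H2-Eb1 (limma adjusted p 0.544) and -0.53 ± 0.22 for H2-Aa (adjusted p 0.330), which correspond to 63.8% and 69.3% of the WT signal. It was -0.42 ± 0.35 for H2-Ab1 and -0.39 ± 0.50 for Cd74. Without a block 0 of 8 genes were called, against 1.33% of all tested genes, and 1 of 8, H2-Aa, passed at the unadjusted level. Arrays of both genotypes with the same replicate number had correlated deviations (0.156 to 0.651 over the 3 times) and were taken as pairs. Replicate 3 is series A in every group, so these correlations can come from the series and do not show that numbers 1 and 2 match. With the replicate number as a block, H2-Eb1 and H2-Aa were lower in KO past the threshold, with -0.65 ± 0.11 (limma adjusted p 0.00211) and -0.53 ± 0.13 (adjusted p 0.0227). That is 2 of 8, where 1.69% of all tested genes were called lower. H2-Ab1 and Cd74 were not called with the block, with adjusted p of 0.140 and 0.261. A difference below 0 in 9 of 9 pairs, as seen in H2-Eb1, was found in 1.38% of all tested genes.

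The series as a fixed block gave the same pair of calls, with adjusted p of 0.00122 for H2-Eb1 and 0.0164 for H2-Aa (1.7% of all tested genes called lower), and within series B alone the differences were -0.68 (adjusted p 0.0106) and -0.61 (adjusted p 0.0323), with 0.946% called lower. With the series as a random block neither was called, with adjusted p of 0.143 and 0.0705. Arrays of 1 replicate number at different times may share a source. With the 3 times averaged first, the 3 replicate numbers were the units. The replicate block then called H2-Eb1 (adjusted p 0.0476, 0.653% of all tested genes called lower) and not H2-Aa (adjusted p 0.139). Without a block on these averages neither was called (adjusted p 0.930 and 0.896). Replicate 1 carried much of the difference: the per-replicate means were -1.07, -0.30 and -0.58 for H2-Eb1 and -1.07, -0.14 and -0.38 for H2-Aa. Without replicate 1 of every group, the blocked difference was -0.44 for H2-Eb1 (adjusted p 0.141) and -0.26 for H2-Aa (adjusted p 0.405), and neither was called. Centring each array on 56 ribosomal protein genes moved the median of all genes by 0.17; on that scale, with the series block, H2-Eb1 had -0.48 (adjusted p 0.0155) and H2-Aa had -0.36 (adjusted p 0.0857).

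**Figure D2:**
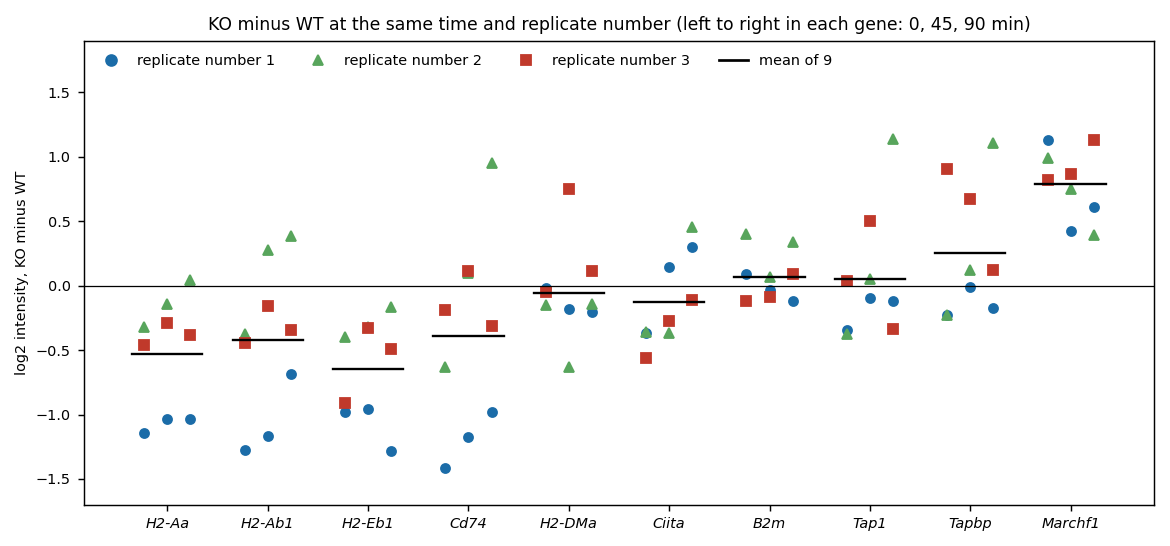
KO minus WT difference in log2 intensity for each time and replicate number, per gene, with the 3 replicate numbers marked apart and a line at 0. All 9 differences of H2-Eb1 lie below 0, 8 of 9 of H2-Aa do, and those of replicate 1 are the lowest of the class II chains and Cd74.

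Markers of other cells that carry class II were read beside these differences. The mean log2 level of the 8 dendritic cell markers per array lay between 2.52 and 2.85 in WT and between 2.46 and 2.76 in KO. Only Zbtb46, Itgax and Ccr7 passed the signal limit, so this mean rests largely on dim genes. Over all times 3 of the 8 differences were above 0 and 5 below, with a median of -0.09, and 0 of the 3 tested markers were called. The 6 measured B cell markers, Cd79a and Ms4a1 among them, were all below the signal limit in every group, with means of 2.05 to 2.42 in WT and 2.11 to 2.37 in KO. The macrophage markers had means of 9.15 to 9.57 in WT and 9.45 to 9.79 in KO; 5 of the 8 differences over all times were above 0 and 3 below. Without a block 2 of 8 were called higher in KO and 0 lower, where 90 and 46 of the 10258 tested genes were. The 2 were Mertk, an efferocytosis receptor (0.76 ± 0.10, limma adjusted p 0.000660), and Fcgr1, an IgG receptor (0.38 ± 0.09, adjusted p 0.0496). The lowest was Cd14, an LPS co-receptor, with -0.26 ± 0.09 (adjusted p 0.240). The part of cell composition in the class II differences was not tested.

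H2-DMa was dim and showed no even difference between the genotypes. It ran from 3.18 to 4.49 over the 18 arrays with group means of 3.58 to 3.92, and KO minus WT over all times was -0.06 ± 0.19. Ciita, the gene of the class II coactivator, was below the signal limit on every array, from 2.37 to 3.00, and was not tested. At 0 min it read 2.82, 2.73 and 2.98 in WT and 2.45, 2.37 and 2.42 in KO. These arrays did not overlap, but no order was read from values this low, for which detection was not assessed.

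Averaged over all times and replicate numbers, the class I genes did not share the class II direction in KO, but single replicate numbers differed. The KO minus WT means of replicates 1, 2 and 3 were -0.02, 0.27 and -0.04 for B2m. They were -0.19, 0.27 and 0.07 for Tap1 and -0.14, 0.33 and 0.57 for Tapbp. Replicate 1, with the largest class II differences, was thus below 0 for these genes as well. At 0 min the Tap1 difference was -0.23. B2m read 11.22, 10.98 and 11.71 in WT and 11.31, 11.37 and 11.59 in KO at 0 min, and its 18 arrays lay between 10.98 and 11.71. The KO minus WT difference over all times was 0.07 ± 0.10 with an interval from -0.14 to 0.28. Tap1 read 7.65, 7.89 and 6.31 in WT and 7.30, 7.52 and 6.35 in KO at 0 min, with a difference over all times of 0.05 ± 0.27. Tapbp read 9.16, 9.28 and 8.38 in WT and 8.93, 9.06 and 9.28 in KO at 0 min, with a difference of 0.25 ± 0.16 over all times. None of the 3 was called over all times without a block, with the replicate block or within series B. At 90 min WT replicate 2 was the lowest WT array for Tap1 and Tapbp, with 7.05 and 8.46, and the KO minus WT differences of that number were 1.14 and 1.10.

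The order of the group means therefore separated the genotypes for some of these genes and not for others. For H2-Aa and H2-Eb1 all 3 KO means lay below all 3 WT means, from 6.93 (KO 45 min) to 7.63 (WT 0 min) and from 6.14 (KO 0 min) to 7.11 (WT 90 min). For H2-Ab1 and Cd74 the KO mean at 90 min lay among the WT means. B2m and Tapbp had their lowest mean in WT at 0 min and their highest in KO at 90 min, 11.30 to 11.50 and 8.94 to 9.52. For the 8 tested genes no step between neighbours in the order exceeded the pooled SD within groups, which was 0.52 for H2-Aa, 0.95 for H2-Eb1, 1.26 for Cd74 and 0.20 for B2m.

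After transcription was blocked, no change of a tested antigen presentation transcript was called in WT macrophages, and most intervals were wide. Over 90 min the WT differences of the 9 genes ran from -0.19 (Ciita) to 0.27 (H2-DMa), against -4.24 ± 0.18 for Tnf. H2-Aa had -0.01 ± 0.37, Cd74 had -0.02 ± 0.87, H2-Ab1 had 0.08 ± 0.61, H2-Eb1 had 0.21 ± 0.66, Tap1 had 0.05 ± 0.46, Tapbp had 0.23 ± 0.28 and B2m had 0.09 ± 0.17. Of the 8 tested, 0 were called, against 1.23% of all tested genes, and 0 of 8 passed at 45 min, against 0.127%; 0 of 8 passed at the unadjusted level at either time. The interval of B2m, from -0.27 to 0.46, is the narrowest among the tested genes and that of Cd74, from -1.85 to 1.82, the widest. Replicates 2 and 3 had opposite signs for Cd74 (-0.74 and 0.64), Tap1 (-0.84 and 0.89) and Tapbp (-0.82 and 1.21). Of the tested genes only H2-Eb1 and H2-DMa had the same sign in all 3 replicate numbers. Values are read relative to the overall signal of each array, so a difference near 0 does not show that none of the mRNA was lost.

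In KO macrophages all 9 differences at 90 min were above 0, with values from 0.07 (B2m) to 0.62 (Cd74). Their median was 0.43 with the untested Ciita and 0.37 for the 8 tested genes. Over all tested genes it was 0.02, and 5483 of 10258 were above 0. So were 11 of 11 other class I genes, 9 of 11 other genes of the class II route and 4 of 5 immunoproteasome genes. Of the class II transcription genes 1 of 7 was, and of the inducing or restraining genes 5 of 13 were. Cd74 went from 6.64, 7.29 and 9.29 at 0 min to 7.13, 8.13 and 9.81 at 90 min, a difference of 0.62 ± 0.87. H2-Ab1 had 0.56 ± 0.61, Tap1 had 0.51 ± 0.46, Tapbp had 0.43 ± 0.28, H2-Eb1 had 0.32 ± 0.66, H2-DMa had 0.27 ± 0.33 and H2-Aa had 0.17 ± 0.37. All but H2-Eb1 and B2m were higher at 90 min in each of the 3 replicate numbers, 6 of the 8 tested genes and also Ciita, where 19.7% of all tested genes were. No single difference passed: 0 of 8 were called at 90 min, against 0.224% of all tested genes, and 0 of 8 at 45 min, against 0.0487%, and 0 of 8 passed at the unadjusted level at either time. The median of the 9 differences was 0.34 in replicate 1, 0.51 in replicate 2 and 0.42 in replicate 3. With the KO 0 min array of replicate 1 left out and its 90 min array kept, in the fit without a block, the median of the 8 tested genes was 0.07 in place of 0.37. That omission mixes series A and series B unequally at 0 and 90 min, so the series difference enters the change. It therefore cannot show how far the differences depended on that array.

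**Figure D3:**
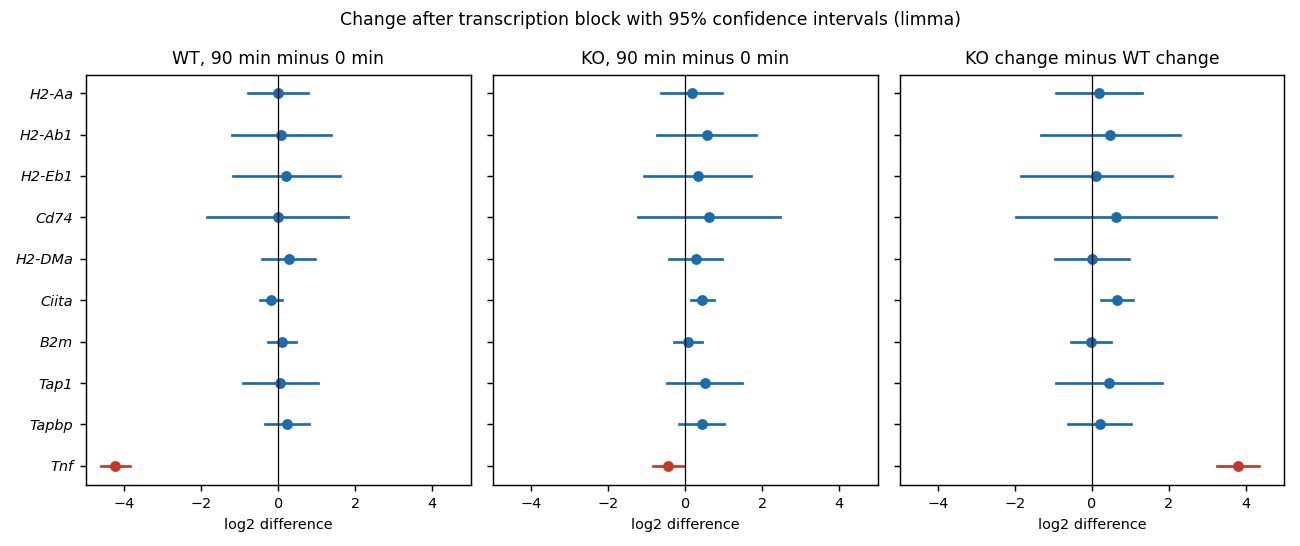
Log2 difference between 90 min and 0 min in WT, in KO, and KO minus WT of these differences, with 95% confidence intervals from limma, for the 9 measured genes and for Tnf as a reference in red. Intervals of the tested genes all cross 0 in each panel, whereas Tnf lies at -4.24 in WT and at 3.79 in the difference between genotypes; Ciita, below the signal limit, was not tested.

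The question of the series is whether an mRNA decays less without TTP, read as the KO change minus the WT change. At 90 min this decay difference was 0.63 ± 1.23 for Cd74, 0.48 ± 0.86 for H2-Ab1, 0.45 ± 0.65 for Tap1, 0.20 ± 0.39 for Tapbp, 0.18 ± 0.53 for H2-Aa, 0.12 ± 0.93 for H2-Eb1, 0.00 ± 0.46 for H2-DMa and -0.02 ± 0.24 for B2m. For Tnf it was 3.79 ± 0.26. Limma called 0 of 8 at 90 min, against 0.0195% of all tested genes, and 0 of 8 at 45 min, against 0.00975%, with 0 of 8 at the unadjusted level at either time. Per replicate number the Cd74 values were 0.44, 1.58 and -0.12 and those of Tap1 were 0.23, 1.51 and -0.37, so replicate 2 held the largest value and replicate 3 the opposite sign. The intervals for B2m (-0.54 to 0.50), Tapbp (-0.62 to 1.02) and H2-DMa (-0.97 to 0.97) exclude a decay difference as large as that of Tnf, as do those of the other 5 tested genes, the widest being -1.96 to 3.23 for Cd74. The Tnf value was the largest of all tested genes, so this is a weak limit, and smaller decay differences were not excluded. The changes at 45 and 90 min and both decay differences share the 0 min arrays, so their values are not independent of one another.

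The largest differences among these genes were between the title-number series, a comparison added after the data were seen. Series A is replicate number 3 alone and series B is numbers 1 and 2. If arrays of 1 number share a source, the errors and p-values of this comparison treat related arrays as independent and are too small. Within groups, series A exceeded series B by 2.05 ± 0.19 for Cd74, a ratio of 4.15, by 1.60 ± 0.11 for H2-Eb1 (3.03-fold), by 1.40 ± 0.16 for H2-Ab1 (2.63-fold) and by 0.77 ± 0.13 for H2-Aa (1.70-fold). The 6 series A arrays of Cd74 lay between 9.29 and 10.12 and the 12 series B arrays between 6.64 and 8.13; for H2-Eb1 they lay between 7.08 and 8.18 and between 5.56 and 6.86, so neither gene's series overlapped. H2-DMa was higher by 0.56 ± 0.14 (limma adjusted p 0.00684). For B2m the difference was 0.24 ± 0.09 (adjusted p 0.0507), and for Tapbp it was -0.04 ± 0.17. Tap1 went the other way, with -1.0 ± 0.14, and was lower in series A than the series B mean in 6 of 6 groups.

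Of the 8 tested genes, 5 were thus called higher in series A, where 17.1% of all tested genes were, and 1 was called lower, where 9% were. Other genes of both pathways differed as well, in both directions. Of 8 other tested genes of the class II route, 5 were called higher and 0 lower: the lysosomal protease genes Ctsl (0.59 ± 0.07), Lgmn (0.55 ± 0.09) and Ctsd, the thiol reductase gene Ifi30, and Marchf1. Of 7 class II transcription genes, Nfya and Rfxap were called higher and Rfx5 lower. Of 11 other class I genes, 3 were called higher, the chaperone genes Calr, Canx and Pdia3 (0.36 to 0.45), and 3 lower, namely H2-Q4 (-0.65 ± 0.12), Tap2, the partner of Tap1 (-0.59 ± 0.14), and H2-M3. Among 5 immunoproteasome genes 1 was called, Psmb9, with -0.81 ± 0.09. Of 13 inducing or restraining genes, 3 were called higher: Il10 (1.51 ± 0.17), the interferon gamma receptor gene Ifngr2 (0.93 ± 0.08) and the kinase gene Jak1 (0.48 ± 0.10). The 5 called lower were Stat2, a transducer of interferon signals (-1.08 ± 0.10), Nlrc5, the class I transactivator (-0.66 ± 0.14), Irf1, Irf2 and Ifnb1. Macrophage markers moved with the series too, with Itgam, Csf1r, Lyz2 and Adgre1 called higher in series A and Cd14 called lower (5 of 8). Of 3 tested dendritic cell markers 0 were called. Itgax had 0.39 ± 0.16 (limma adjusted p 0.0740), a difference of the size of the called Csf1r (0.39 ± 0.12), and Zbtb46 and Ccr7 had 0.13 and -0.12. B cell markers were below the limit in both series. The part of these genes and markers in the class II difference was not tested.

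**Figure D4:**
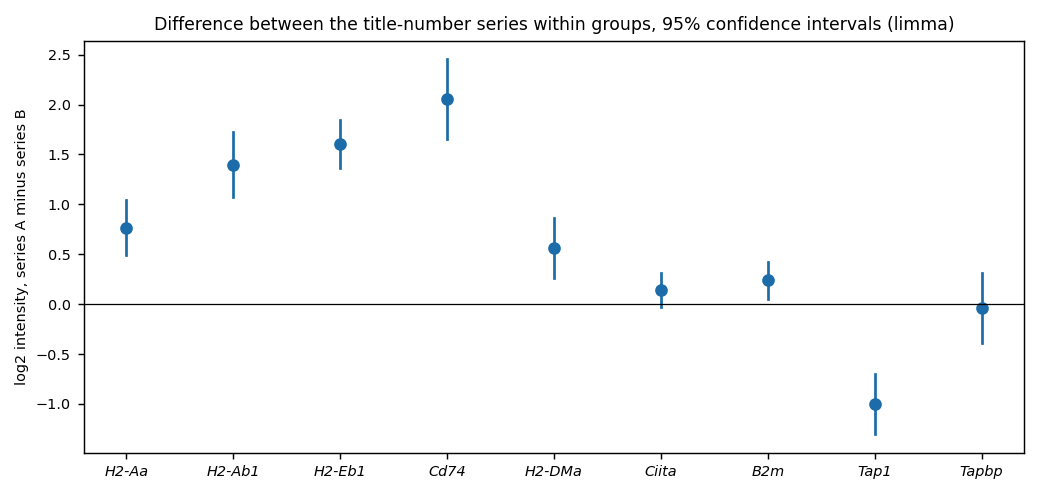
Series A minus series B in log2 intensity, within the 6 groups, for the 9 measured genes, with 95% confidence intervals from limma. Cd74, H2-Eb1, H2-Ab1, H2-Aa and H2-DMa lie above 0 with intervals that exclude it, Tap1 lies at -1.0, and Tapbp and the untested Ciita have intervals that cross 0.

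Across the wider class II route, Marchf1, the ubiquitin ligase that removes class II molecules from the surface, was the gene that stood apart between genotypes. It read 3.47, 3.91 and 4.38 in WT and 4.60, 4.90 and 5.19 in KO at 0 min, and 4.12, 3.97 and 4.19 in WT and 4.73, 4.36 and 5.32 in KO at 90 min. Over all times it was higher in KO by 0.79 ± 0.14 (limma adjusted p 0.00923), in 9 of 9 pairs, and groups did not overlap at 0 min or at 90 min. Of the 8 tested genes on that list, 1 was called higher and 0 lower, where 90 and 46 of the 10258 tested genes were. Ctsl and Lgmn had 0.36 ± 0.15 and 0.40 ± 0.15 and were not called. Of the 7 genes for RFX, NF-Y and CREB subunits, 0 were called, and the largest differences were -0.18 for Rfx5 and -0.08 for Nfyb.

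Among 13 tested genes that induce or restrain these pathways, 1 was called higher and 0 lower in KO over all times, where 90 and 46 of the 10258 tested genes were. This was Il10, the cytokine that dampens antigen presentation and a known TTP target, with 5.11, 5.29 and 7.65 in WT and 6.26, 6.53 and 7.74 in KO at 0 min, and 3.01, 3.12 and 4.15 in WT and 5.72, 6.38 and 6.89 in KO at 90 min. The groups overlapped at 0 min and not at 90 min, and the difference over all times was 2.08 ± 0.38 (limma adjusted p 0.0101), positive in 9 of 9 pairs. With the 3 times averaged first and no block, neither Marchf1 nor Il10 was called (limma adjusted p 0.378 and 0.466), nor were H2-Eb1 and H2-Aa (adjusted p 0.930 and 0.896). With the replicate block on the averaged times, Marchf1 and Il10 were both called (adjusted p 0.00438 and 0.000107). Of 11 other class I genes and 5 immunoproteasome genes, 0 were called over all times; the largest differences were 0.22 for H2-Q4 and 0.21 for Erap1, and 0.10 for Psmb9 and -0.09 for Psme2.

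Over 90 min in WT, 2 of the 13 inducing or restraining genes were called lower and 0 higher, where 125 and 1 of the 10258 tested genes were. Irf1, an interferon-induced activator of class I genes and Ciita, went from 9.70, 9.73 and 9.15 to 7.22, 7.01 and 6.66, and fell by 2.56 ± 0.57 on the log2 scale (limma adjusted p 0.0304). Socs1, an inhibitor of interferon signalling, went from 6.35, 6.49 and 5.72 to 5.25, 4.29 and 4.60, and fell by 1.47 ± 0.31 (adjusted p 0.0232). Each call was lost when single arrays of the WT 0 or 90 min groups were left out, with adjusted p up to 0.116 for Irf1 without WT 0 min replicate 2 and up to 0.132 for Socs1 without WT 90 min replicate 2. In KO the values were -1.85 ± 0.57 and -1.0 ± 0.31, not called, and the decay differences of 0.71 ± 0.80 and 0.47 ± 0.44 did not pass. Of the other 4 lists (class II route, class II transcription, class I and immunoproteasome, 31 tested genes), 0 were called in either genotype over 90 min; the largest values in WT were 0.36 for Sppl2a, -0.58 for Nfya, 0.36 for Mr1 and 0.19 for Psmb9.

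The 4 abundant class II transcripts moved together across arrays. Over 18 arrays the correlation of H2-Ab1 with Cd74 was 0.976 and that of H2-Aa with H2-Eb1 was 0.915; within the 12 arrays of series B they were 0.930 and 0.934. Tap1 and Tapbp had 0.493 over all arrays and 0.943 within series B. H2-DMa followed the class II mean less closely, with 0.707 over all arrays and 0.291 within series B. The 5 tested genes outside the group most like the class II mean over 18 arrays were U90926 (0.955), Ncf4, a subunit of the phagocyte oxidase (0.942), Tmem97 (0.940), Fth1, the ferritin heavy chain (0.926), and Sqle, an enzyme of sterol synthesis (0.926). Within series B these were 0.761, 0.766, 0.660, 0.825 and 0.788, and within the 6 arrays of series A they were 0.905, 0.684, 0.855, 0.484 and -0.225, so the likeness of Sqle did not hold there. The arrays share series and groups, so these correlations are descriptions.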

How the data were processed

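Values were the deposited value table of 18 Affymetrix Mouse Gene ST 1.0 arrays. RMA and Affymetrix Expression Console are named in the submitters' processing notes, without versions or settings. The authors' values range as linear intensity does, although no label states the scale; they were converted to log2 with no offset. Of 25138 rows, 21039 carried 1 symbol, 1485 several and 2614 were not listed; symbols were updated through gene identifiers to RefSeq (GRCm38.p6), and 84 rows kept an older symbol. The brightest row per symbol left 19454 genes, of which 10258 reached the signal limit. Group means were fitted over all arrays with limma 3.58.1 in R 4.3.3 (lmFit, eBayes), without a block, with Benjamini-Hochberg adjustment within each comparison at 0.05; the procedure was tested on simulated data. The number of arrays limits precision.

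The members and gene lists were chosen with earlier results of these data known. All members are named; genes of other lists are named where called, or else the largest differences of a list. Titles without a replicate number were counted as replicate 1. Replicate numbers were taken as pairing arrays where every same-number correlation of deviations exceeded 0.1, a rule that does not separate pairing from the series. This held for KO against WT at each time (0.156 to 0.369 at 0 min, 0.197 to 0.527 at 45 min, 0.183 to 0.651 at 90 min) and for both KO changes and the WT change at 45 min, but not for the WT change at 90 min (lowest -0.287) or the decay differences. Alternatives covered blocks, filters, scaling, moderation and leaving out arrays.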

Additional observations from a re-analysis of the deposited data

Results flagged for a closer look

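Ciita, the coactivator gene of class II transcription, had changes of opposite sign in the genotypes over 90 min. In WT the differences of replicates 1, 2 and 3 were -0.26, -0.28 and -0.04, and in KO they were 0.40, 0.53 and 0.41, a difference between genotypes of 0.64. Ciita was below the signal limit in all 6 groups and so was left out of the tests; with no filter on dim genes, limma gave the difference an adjusted p of 0.9996, and it was not called.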

How the results depend on the processing

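Across 56 alternatives for the genotype difference over all times, the count of called genes among the 8 tested was 0 where neither a block nor a single series was used. It was 2 (H2-Eb1 and H2-Aa) with the replicate block, with the series as a fixed block, within series B, with the replicate block without replicate 2 or replicate 3 of every group, and with the series block and centring on housekeeping genes. It was 2 to 3 with the series block and 1 array left out, the third being H2-Ab1 without WT 0 min replicate 3. It was 1 (H2-Eb1) with the series block and centring on ribosomal protein genes, and with the times averaged and the replicate block. With the series as a random block it was 0, as it was with the replicate block without replicate 1 of every group; the cause was not tested. H2-Eb1 was called in 26 and H2-Aa in 24 of the 56, with values of -0.85 to -0.44 and -0.72 to -0.26. For each gene 18 of these calls were the series-block fit with 1 array left out, so they repeat 1 result and are not independent. Of all tested genes, 1.69% were called lower with the replicate block, 1.7% with the series as a fixed block and 0.946% within series B. With the series as a random block 1.06% were. The replicate block changed no other call of a member. In the other 9 comparisons of the study no member tested was called in any of 34 alternatives, of which the stricter filter left out H2-DMa and the absence of a filter added Ciita; uncalled values often changed sign, as for Cd74 over 90 min in WT in 7 of 34 and H2-DMa in the genotype difference over all times in 9 of 55. For the series difference, 5 of the 6 calls were kept in all 26 alternatives, that of H2-DMa was kept in the 25 that tested it, and B2m was also called in 5. Alternatives with blocks and array omissions together, averaged times, and the series difference were chosen after seeing the data. Signal limits what can be said of Ciita and H2-DMa, and 3 arrays per group limit the single-time comparisons.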
